A study of Mus musculus with 10 samples.

Results

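The genes described here are 10 markers of tubular injury and dedifferentiation of the mouse kidney, namely Havcr1, Lcn2, Spp1, Clu, Sox9, Cd24a, Krt8, Krt18, Krt20 and Cd44. They were taken by gene symbol from the deposited log2 expression table, where each of the 10 was found with a single row, out of 30894 named genes in all. The question was how their mRNA differed between kidneys of mice given cyclosporin A (CsA), an immunosuppressant that inhibits calcineurin, and kidneys of mice given vehicle, and how far the CsA kidneys differed among themselves.

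Each group held 5 kidney samples, with 1 microarray per sample. The CsA group received 60 mg/kg subcutaneously each day and was sampled after 7 injections, and the vehicle group received the solvent cremophore in the same way. All mice were 10 to 12 weeks old, had a C57BL/6 background and ate chow with 0.05% sodium. Both groups carried the same alleles, a Pax8-rtTA driver that makes Vhl removable from tubule cells after doxycycline. The labels do not say whether doxycycline was given to these animals, and Vhl differed by 0.00 ± 0.09 log2 units (SE) between the groups. Each sample title ends in a different number, but the labels do not say that each array stands for a separate animal. The p-values therefore measure the spread between arrays, which may be technical in part. Halved kidneys were ground whole, and in such RNA more cells that express a gene and more RNA per cell cannot be told apart.

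CsA replicates 1 and 2 carried female RNA, with Xist at 9.21 and 9.15, while 4 genes of the Y chromosome averaged 3.90 and 4.03. On the other 8 arrays Xist ran from 4.20 to 4.82 and the average of these Y genes from 6.91 to 7.65. The CsA arrays thus came from more than 1 animal. The labels mention no sex, and no vehicle array was female. The difference of each of the 10 markers is therefore given for all 10 arrays and for the 8 male arrays (3 CsA, 5 vehicle). For other genes some differences are given for all 10 arrays only. Array medians ran from 5.14 to 5.21 log2 units. The endocytic receptor gene Lrp2, which defines proximal tubule cells, stood at 11.89 ± 0.07 with CsA and 11.90 ± 0.05 with vehicle (SD, n = 5).

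Tubule cells that are damaged lose parts of their differentiated programme and switch on genes of the developing nephron and of simple epithelia. The products include surface receptors (Havcr1, Cd44, Cd24a), secreted proteins that reach the urine (Lcn2, Spp1, Clu), the transcription factor Sox9, and keratins of the cytoskeleton (Krt8, Krt18, Krt20). Havcr1 protein, also called KIM-1, and Lcn2 protein, also called NGAL, are widely measured in urine as signs of acute kidney damage.

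Havcr1, Lcn2, Spp1, Clu and Krt8 rose with CsA at a limma adjusted p under 0.05 over all genes, 5 of the 10 markers. The threshold was passed in the same direction by 2.95% of all 30894 genes, or 911, while 1093 genes, or 3.54%, fell. After centring each array on its median the split over all genes was 605 higher and 1322 lower, or 31.4% higher in place of 45.5%. No marker fell. All 10 differences were above 0, with a median of 0.40 log2 units against 0.0065 over all genes, and the sign stayed above 0 after quantile normalisation and after centring. On the male arrays 4 markers rose, Havcr1, Lcn2, Spp1 and Clu, where 1.53% of all genes were called higher and 1.64% lower. Sizes ran from 1.14-fold for Cd44 to 3.73-fold for Havcr1. The markers were chosen with earlier results of these arrays known, so their counts are a description.

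**Figure D1:**
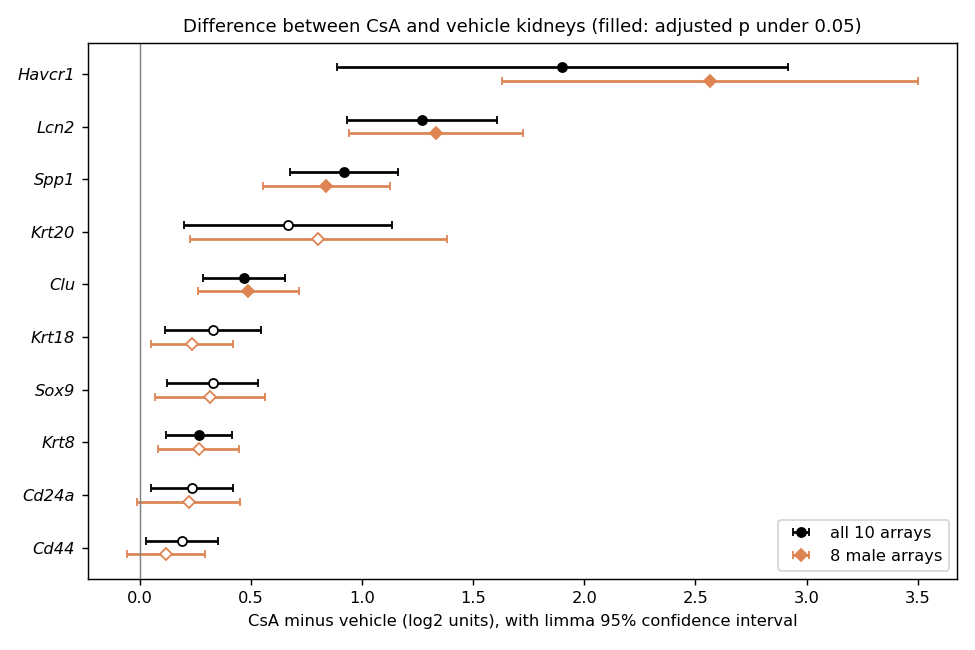
Difference of each marker between CsA and vehicle kidneys in log2 units (x axis) with limma's 95% confidence interval, for all 10 arrays (circles) and the 8 male arrays (diamonds); filled symbols have an adjusted p under 0.05. Havcr1 has the longest interval, 0.89 to 2.91, and the intervals of Cd24a and Cd44 reach below 0 on the male arrays.

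The stretches around the transcription start of 4 of the markers that rose are shown to place the letters searched for. Each runs from 250 bases before to 50 bases after a RefSeq start (GRCm38.p6), 5′ to 3′ on the gene's strand, with motif matches in capitals. The letters searched for were TATAAA for a core promoter box, TTCNNNGAA for STAT factors, GGGNNNNNCC for NF-kB and TGANTCA for AP-1, on both strands, and matches could overlap.
Lcn2, chr2:32387690-32387989, minus strand: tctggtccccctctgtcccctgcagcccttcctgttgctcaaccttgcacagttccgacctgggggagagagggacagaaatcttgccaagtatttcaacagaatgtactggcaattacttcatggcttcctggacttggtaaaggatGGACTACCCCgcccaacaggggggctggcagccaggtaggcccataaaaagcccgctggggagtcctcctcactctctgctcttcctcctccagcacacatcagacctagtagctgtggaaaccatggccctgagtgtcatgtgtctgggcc
Spp1, first of 2 listed starts, chr5:104434861-104435160, plus strand: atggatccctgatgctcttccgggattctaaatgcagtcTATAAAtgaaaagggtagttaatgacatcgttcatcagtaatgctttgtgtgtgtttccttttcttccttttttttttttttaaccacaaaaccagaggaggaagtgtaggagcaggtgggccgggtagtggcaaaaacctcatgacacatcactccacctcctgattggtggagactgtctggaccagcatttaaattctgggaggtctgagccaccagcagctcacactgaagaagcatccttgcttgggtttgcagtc
Havcr1, first of 3 listed starts, chr11:46739973-46740272, plus strand: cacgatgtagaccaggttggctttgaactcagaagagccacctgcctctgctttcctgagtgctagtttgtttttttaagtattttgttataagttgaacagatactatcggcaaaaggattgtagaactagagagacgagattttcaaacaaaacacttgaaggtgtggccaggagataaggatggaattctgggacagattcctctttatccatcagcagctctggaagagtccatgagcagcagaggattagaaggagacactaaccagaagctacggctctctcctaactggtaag
Krt8, chr15:102004293-102004592, minus strand: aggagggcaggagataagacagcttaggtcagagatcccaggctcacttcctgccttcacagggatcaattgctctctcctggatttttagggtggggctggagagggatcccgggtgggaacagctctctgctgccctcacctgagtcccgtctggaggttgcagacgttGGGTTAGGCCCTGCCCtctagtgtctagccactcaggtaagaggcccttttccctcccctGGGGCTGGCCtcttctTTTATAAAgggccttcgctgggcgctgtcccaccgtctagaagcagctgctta

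Lcn2 held an NF-kB match at positions -102 to -93 from its start, and Spp1 a TATAAA match at -211 to -206. Krt8 held overlapping TATAAA matches at its start and 4 NF-kB matches. Markers not called held matches as well, with 4 NF-kB matches in Krt18, 2 in Cd44 and TATAAA at -29 to -24 in Krt20. The Havcr1 stretch held none of the 4 motifs, and the stretch of the last of its 3 listed starts held the AP-1 match TGAATCA from base 11 to base 17 after the start. Among all 32851 listed stretches of this length, 13.6% held TATAAA, 8.3% the STAT letters, 50.8% the NF-kB letters and 7.81% the AP-1 letters. Entries matched 7 of the 10 markers by symbol, and none was listed for Clu, Sox9 and Cd24a. A match describes letters and not binding.

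Among the surface receptors, Havcr1 encodes a phosphatidylserine receptor with which injured proximal tubule cells engulf dead cells. In CsA replicates 1 to 5 it stood at 5.39, 5.36, 8.31, 6.50 and 6.31 log2 units. In vehicle replicates 1 to 5 it stood at 5.01, 4.41, 4.52, 4.59 and 3.84. Every CsA array lay above every vehicle array, and the closest pair, CsA replicate 2 and vehicle replicate 1, was 0.36 log2 units apart. The difference was 1.90 ± 0.47 (SE; limma adjusted p = 0.0325), or 3.73-fold with a 95% confidence interval of 1.85 to 7.54. In males alone it was 2.57 ± 0.42 (limma adjusted p = 0.0164), or 5.92-fold. Over all 10 arrays Havcr1 missed the threshold when CsA replicate 4 or 5 was left out (limma adjusted p = 0.0638 and 0.0594). The same held when vehicle replicate 2, 3, 4 or 5 was left out (0.0711, 0.0683, 0.0622 and 0.0646). In males it passed with each array left out in turn.

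The CsA arrays were unequal in Havcr1 to a degree seen in few genes. The SD was 1.20 with CsA and 0.42 with vehicle, a ratio of 2.85. A ratio this large or larger occurred in 6.36% of all genes, and a CsA SD this large in 0.0874%. The arrays with female RNA were the lowest of the CsA group and nearly equal, and the 3 male CsA arrays still spread by 1.10 (SD, n = 3). The female minus male difference within CsA was -1.66 ± 0.49 (SE; 95% confidence interval -2.75 to -0.58), which did not pass over all genes (limma adjusted p = 0.257). Without CsA replicate 3, the highest array, Havcr1 remained called with all others (1.42, limma adjusted p = 0.0170) and on the male arrays (1.93, limma adjusted p = 0.0260). Within the CsA group the summed signal of 9 adipocyte markers was also lowest in replicates 1 and 2 (9.42 and 9.20, as log2 of the sum). It was 10.15, 10.66 and 10.27 in CsA replicates 3 to 5. Replicate 3, the highest array for Havcr1, was thus the lowest of the male CsA arrays for this sum. The sum rested mostly on the bright genes Fabp4 and Car3. Within the CsA group Fabp4, Car3, Cfd, Cidec and Plin1 were lowest in replicates 1 and 2, while Adipoq, Retn, Lep and Adrb3 were not. In vehicle replicates 1 to 5 the sum was 10.02, 9.66, 9.53, 9.46 and 9.42. Replicates 1 and 5 were also the highest and the lowest vehicle arrays for Havcr1, while replicates 2 to 4 ran in the opposite order. The part of fat tissue in the Havcr1 values was not tested. CsA replicates 1 and 2 carried female RNA, so for their low values fat and sex cannot be told apart.

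The markers as a group were not unusually variable among CsA kidneys. The SD was larger with CsA in 7 of 10 markers and in 55.9% of all genes, with a median ratio of 1.13 against 1.09. Clu (2.35) and Krt18 (1.85) followed Havcr1 in this ratio, while Krt8 (0.57) and Cd24a (0.51) were tighter with CsA than with vehicle. The same array tended to lead. CsA replicate 3 was the highest CsA array for Havcr1, Lcn2, Spp1, Clu, Sox9, Krt8 and Krt20, 7 of 10 markers, against 18% of all genes. It was the lowest for Cd24a and Krt18. CsA replicate 5 was the lowest CsA array for Spp1, Clu, Sox9, Krt8 and Krt20, against 18.2% of all genes. Taken over the 10 markers, the median deviation from the vehicle mean was 0.50, 0.37, 0.62, 0.39 and 0.26 log2 units in CsA replicates 1 to 5, and between -0.09 and 0.05 in the vehicle arrays.

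**Figure D2:**
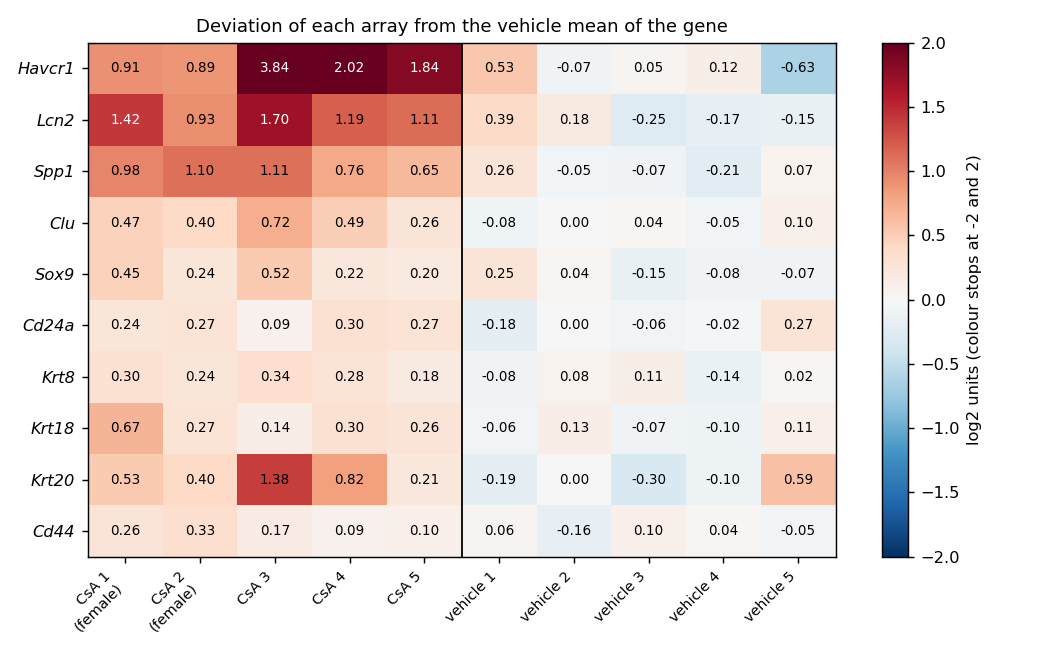
Deviation of each array (columns, 5 CsA and 5 vehicle) from the vehicle mean of each marker (rows), in log2 units written in the cells; colours stop at -2 and 2. CsA replicate 3 reaches 3.84 for Havcr1, 1.70 for Lcn2 and 1.38 for Krt20, and vehicle replicate 5 lies at -0.63 for Havcr1 and 0.59 for Krt20.

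Cd44 and Cd24a, the other surface proteins, differed little. Cd44, a receptor for hyaluronan and osteopontin that leukocytes carry as well, stood at 4.97, 5.05, 4.88, 4.80 and 4.81 in CsA replicates 1 to 5 and at 4.77, 4.55, 4.82, 4.76 and 4.67 in vehicle replicates 1 to 5. The groups overlapped, with 3 CsA arrays above the highest vehicle array. The difference of 0.19 ± 0.07 (SE) missed the threshold (limma adjusted p = 0.171), and its 95% interval of 0.03 to 0.35 leaves out any change above 1.28-fold. The male arrays alone gave 0.12 ± 0.08 (limma adjusted p = 0.460). The female CsA arrays were the highest of all 10 arrays for this gene, 0.18 ± 0.10 (SE) above the male CsA arrays (limma adjusted p = 0.626).

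Cd24a encodes a glycolipid-anchored surface protein found on renal progenitor-like cells. It stood at 10.15, 10.18, 10.00, 10.21 and 10.18 in CsA replicates 1 to 5 and at 9.73, 9.91, 9.85, 9.88 and 10.18 in vehicle replicates 1 to 5. Vehicle replicate 5 thus reached the level of the CsA arrays. The difference of 0.23 ± 0.09 (SE) missed the threshold (limma adjusted p = 0.134) and passed without vehicle replicate 5 (0.30, limma adjusted p = 0.0334). The male arrays alone gave 0.22 ± 0.10 (limma adjusted p = 0.297).

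Among the secreted proteins, Lcn2 encodes a lipocalin that binds iron-carrying siderophores. Its signal was 8.01, 7.52, 8.28, 7.78 and 7.70 in CsA replicates 1 to 5, against 6.98, 6.76, 6.33, 6.42 and 6.44 in vehicle replicates 1 to 5. The groups were 0.54 log2 units apart at their nearest arrays, the widest gap among the 10 markers. Lcn2 rose by 1.27 ± 0.16 (SE; limma adjusted p = 0.00111), or 2.41-fold with a 95% interval of 1.91 to 3.05. The spread was alike in both groups (SD 0.30 and 0.27, n = 5), in contrast with Havcr1. Among males the rise was 1.33 ± 0.18 (limma adjusted p = 0.00734), and the call held with each array left out in turn in both comparisons.

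Spp1 encodes osteopontin, a secreted phosphoprotein that binds integrins and CD44. It stood at 10.90, 11.02, 11.03, 10.68 and 10.57 with CsA (replicates 1 to 5) and at 10.18, 9.87, 9.85, 9.71 and 9.99 with vehicle. All CsA arrays exceeded all vehicle arrays, and both female CsA arrays were within the range of the male ones. The rise was 0.92 ± 0.11 (SE; limma adjusted p = 0.00106), or 1.89-fold, the smallest adjusted p among the 10 markers. Among males it was 0.84 ± 0.13 (limma adjusted p = 0.0129), and there it missed the threshold without CsA replicate 3 (0.70, limma adjusted p = 0.0557).

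Clu encodes clusterin, an extracellular chaperone. The 5 CsA arrays read 8.60, 8.54, 8.86, 8.62 and 8.39 and the 5 vehicle arrays 8.05, 8.13, 8.17, 8.08 and 8.23, in the order of their replicate numbers. The groups did not overlap, and the lowest CsA array was 0.16 above the highest vehicle array. Clu rose by 0.47 ± 0.08 (SE; limma adjusted p = 0.00812), or 1.38-fold, and the call held with each of the 10 arrays left out. Among males the rise of 0.49 ± 0.10 (limma adjusted p = 0.0364) was lost without CsA replicate 3 or 4 (0.37 and 0.49, limma adjusted p = 0.119 and 0.107), as it was on leaving out vehicle replicate 1, 2, 3 or 4 (0.0772, 0.0771, 0.0743 and 0.0798).

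**Figure D3:**
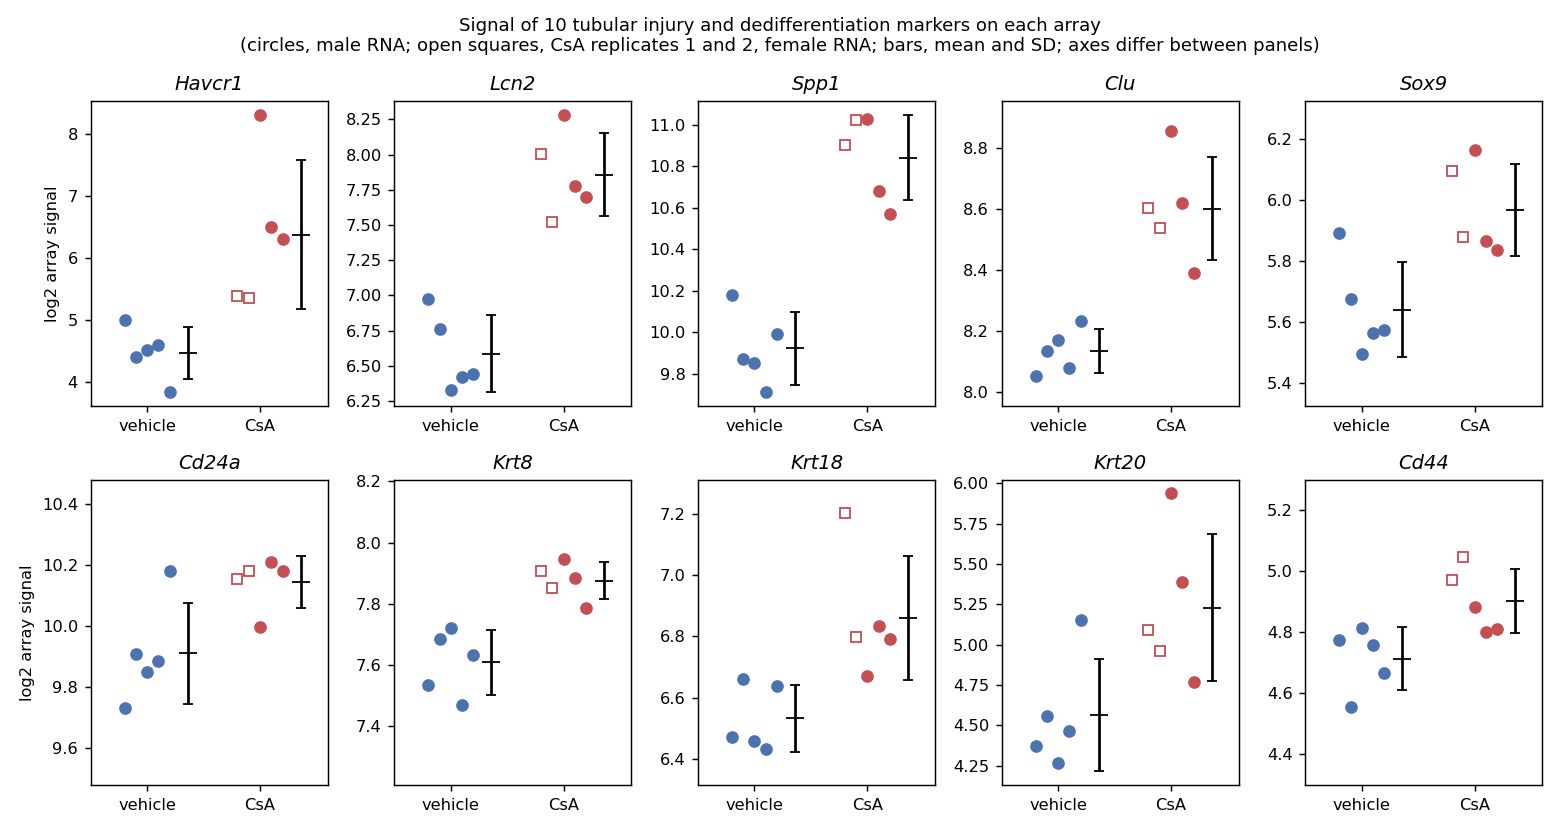
Log2 array signal (y axes, which differ between panels) of the 10 markers on the 5 vehicle and 5 CsA arrays; circles are male RNA, open squares CsA replicates 1 and 2 with female RNA, and bars the mean and SD. The groups are apart for Havcr1, Lcn2, Spp1, Clu, Krt8 and Krt18 and overlap for Sox9, Cd24a, Krt20 and Cd44.

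Sox9 encodes a transcription factor of the developing nephron that regenerating tubule cells express again. It stood at 6.10, 5.88, 6.17, 5.87 and 5.84 in CsA replicates 1 to 5 and at 5.89, 5.68, 5.50, 5.57 and 5.57 in vehicle replicates 1 to 5. Vehicle replicate 1 lay above 3 of the CsA arrays. The difference of 0.33 ± 0.09 (SE), or 1.25-fold, missed the threshold (limma adjusted p = 0.0611), and passed without vehicle replicate 1 (0.39, limma adjusted p = 0.0333). It also passed when genes at or under the 25th percentile of mean signal were left out (limma adjusted p = 0.0395). The male arrays alone gave 0.32 ± 0.11 (limma adjusted p = 0.164).

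The keratins Krt8 and Krt18 pair into the filaments of simple epithelia, and both genes lie on chromosome 15. Krt8 stood at 7.91, 7.85, 7.95, 7.88 and 7.79 in CsA replicates 1 to 5 and at 7.53, 7.68, 7.72, 7.47 and 7.63 in vehicle replicates 1 to 5, with no overlap. It rose by 0.27 ± 0.07 (SE; limma adjusted p = 0.0378), or 1.20-fold. This call was the least secure of the 5. It was lost after centring arrays on their medians (limma adjusted p = 0.101), on the male arrays (0.26 ± 0.08, limma adjusted p = 0.117), and on leaving out any array but CsA replicate 5 or vehicle replicate 3. The limma adjusted p was then 0.0666, 0.0688, 0.0822 and 0.0685 without CsA replicates 1 to 4, and 0.0874, 0.0596, 0.0904 and 0.0556 without vehicle replicates 1, 2, 4 and 5.

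Krt18 stood at 7.21, 6.80, 6.67, 6.83 and 6.79 in CsA replicates 1 to 5 and at 6.47, 6.66, 6.46, 6.43 and 6.64 in vehicle replicates 1 to 5. The groups touched without overlapping, since CsA replicate 3 exceeded vehicle replicate 2 by 0.0099 log2 units. Its difference of 0.33 ± 0.10 (SE) was larger than that of Krt8 but missed the threshold (limma adjusted p = 0.0713). It passed with dim genes left out (limma adjusted p = 0.0466 above the 25th percentile). In males alone it was 0.23 ± 0.08 (limma adjusted p = 0.166), and CsA replicate 1, a female array, was the highest of all.

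Krt20, a keratin of gut and urothelium that injured tubules can express, stood at 5.09, 4.96, 5.94, 5.39 and 4.77 in CsA replicates 1 to 5. In vehicle replicates 1 to 5 it stood at 4.37, 4.56, 4.26, 4.47 and 5.15. The groups overlapped through vehicle replicate 5, which lay above 3 of the CsA arrays. The difference of 0.67 ± 0.21 (SE), or 1.59-fold, missed the threshold (limma adjusted p = 0.0901) and passed without vehicle replicate 5 (0.81, limma adjusted p = 0.0351). In males alone it was 0.80 ± 0.26 (limma adjusted p = 0.131). None of 6 urothelial markers was called over the 10 arrays, where 2.95% of all genes rose and 3.54% fell. An unadjusted p under 0.05 was seen in 2 of them, a level at which 10% of all genes were higher. The summed signal of the 6 overlapped between CsA (8.39 to 8.76) and vehicle (8.45 to 8.59).

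The lowest CsA array lay above the highest vehicle array for 6 of the 10 markers, and for 4.04% of all genes, while 5.05% of genes had every CsA array below every vehicle array. These were the 5 that rose and Krt18. For each of the 6 a 2-sided exact permutation test over the 10 arrays gave p = 0.00794, the smallest it can give with 5 against 5. Groups that are fully apart always give this p, so it restates the separation and adds no support. The exact test gave p = 0.0317 for Sox9 and Krt20 and p = 0.0238 for Cd24a and Cd44, without adjustment. The male arrays are a part of the 10, so the same 6 had to be apart there too, and this is no repeat. No further marker was apart on them. Among all genes 6.98% were apart in this direction on the male arrays and 8.1% in the other. The exact permutation p of the 6 was 0.0357 there, the smallest that 3 against 5 allows, and was likewise fixed in advance.

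Genes whose arrays deviated from their group means most like Havcr1 were Ncs1, Hsp90ab1, Timp3, Adap2 and Anpep, with Pearson correlations of 0.96, 0.95, 0.95, 0.94 and 0.94 over the 10 arrays. Without the 2 arrays farthest out for Havcr1 they were 0.86, 0.93, 0.94, 0.81 and 0.89. Spearman's rho lay between 0.84 and 0.96. These are the highest values among all genes tested on 10 arrays that share a normalisation, and are a description. The group means took no account of sex. For each of these genes, as for Havcr1, the lowest CsA arrays were replicates 1 and 2, which carried female RNA. The part of sex in these correlations was not tested. Of these genes Anpep alone was called different between CsA and vehicle (-0.40 ± 0.09 (SE), limma adjusted p = 0.0198). The deviations of Lcn2 correlated with those of Havcr1 at 0.62 (rho 0.50), and at 0.13 without the 2 arrays farthest out for Havcr1. For Lcn2 the most alike genes were Cryga (0.97), Wasl (0.96), Slc35g2 (0.94), Sox9 (0.94) and Desi2 (0.93), with rho between 0.81 and 0.96. Sox9, itself a marker here, kept 0.84 with Lcn2 without the 2 arrays farthest out for Lcn2.

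Other genes that injury is known to induce rose in part. Of 27 such genes 9 rose and none fell, against 2.95% and 3.54% of all genes, with a median difference of 0.13 log2 units. Lgals3, encoding the lectin galectin-3 that macrophages also make, rose 1.84-fold (limma adjusted p = 0.000328), and the complement gene C3 rose 2.27-fold (limma adjusted p = 0.00239). Anxa2, a membrane-binding annexin, and the stress transcription factor gene Atf3 rose 1.43-fold and 1.38-fold (limma adjusted p = 0.0174 and 0.0152). The other genes that rose were Vcam1, S100a6, Cp, Fgb and Fgg, by 1.39-fold to 1.74-fold. Each of these 5 missed the threshold with at least 1 array left out, at limma adjusted p between 0.0506 and 0.0998. On the male arrays 3 of the 27 rose, Lgals3, C3 and S100a6, against 1.53% of all genes. Without vehicle replicate 2 or 3 the count on all arrays was 5 and 4.

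Among 14 other genes of dedifferentiation and of nephron progenitors a single gene passed, where 2.95% of all genes rose and 3.54% fell. Prom1, which encodes the progenitor surface protein prominin-1, rose by 0.68 ± 0.15 (SE; limma adjusted p = 0.0218) as the 1 called gene of 14, and by 0.40 on the male arrays (limma adjusted p = 0.0304). Without vehicle replicate 2 or 3 it missed the threshold on all arrays (limma adjusted p = 0.0516 and 0.0588). Vim, the mesenchymal filament gene vimentin, differed by 0.24 ± 0.07 (limma adjusted p = 0.0533), and the nephron transcription factor genes Pax2 and Sox4 by 0.19 ± 0.07 and 0.18 ± 0.08 (limma adjusted p = 0.107 and 0.198). The list's median was 0.12.

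Of 10 further keratins 1 was called, where 2.95% of all genes rose and 3.54% fell. This was Krt19, a partner of Krt8 in simple epithelia, which rose by 0.31 ± 0.08 (SE; limma adjusted p = 0.0372). It missed the threshold on the male arrays (0.29, limma adjusted p = 0.0719), after centring (0.0944) and after quantile normalisation (0.0765). It did so also without CsA replicate 1, 4 or 5 (0.0631, 0.0653 and 0.0819) and without vehicle replicates 1 to 5 in turn (0.0695, 0.0806, 0.0668, 0.0820 and 0.0674). Krt7 differed by 0.15 ± 0.06, Krt17 by -0.38 ± 0.16 and Krt80 by -0.06 ± 0.07 (limma adjusted p = 0.203, 0.192 and 0.706).

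Of 20 ligand, receptor and partner genes of these markers none rose and 1 fell by limma, against 2.95% and 3.54% of all genes. Of the 20, 4 had an unadjusted p under 0.05 in either direction, a level at which 10% of all genes were higher. The list's median was 0.02 log2 units. The gene that fell was Itgb1, the beta-1 integrin subunit, 1.21-fold lower (limma adjusted p = 0.0188), and it missed the threshold on the male arrays (limma adjusted p = 0.0725) and without vehicle replicate 4 (0.0513). The osteopontin-binding integrin genes Itgav and Itgb3 differed by -0.07 ± 0.06 and 0.07 ± 0.06. The Lcn2 receptor genes Slc22a17 and Lrp2 differed by -0.01 ± 0.08 and -0.01 ± 0.06, with 95% intervals of -0.18 to 0.15 and -0.14 to 0.12. Mmp9, a protease that Lcn2 protein binds, differed by 0.20 ± 0.09, Itgb5 by 0.16 ± 0.07 and the lipoprotein receptor gene Vldlr by -0.21 ± 0.07, none past the threshold.

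Genes of differentiated proximal tubule cells were called about as often as all genes, of which 2.95% rose and 3.54% fell. Of 25 genes 1 fell and 1 rose, and the median was -0.0087 log2 units. An unadjusted p under 0.05 was seen in 9 of the 25, in either direction. At that level 10% of all genes were higher, and the share lower was not counted. Anpep, a brush border aminopeptidase, was 1.32-fold lower (limma adjusted p = 0.0198), but missed the threshold on the male arrays (-0.29, limma adjusted p = 0.0948) and without vehicle replicate 1 (0.0517). Miox, the enzyme that opens the ring of myo-inositol, was 1.20-fold higher (limma adjusted p = 0.0218). Miox missed the threshold on the male arrays (limma adjusted p = 0.0874), after centring (0.0611), and without CsA replicate 3 or vehicle replicate 1 or 3 (0.0502, 0.0516 and 0.0632). Slc5a1, a sodium-glucose cotransporter gene, differed by -0.29 ± 0.08 (SE; limma adjusted p = 0.0579) and passed without vehicle replicate 5 (-0.34, limma adjusted p = 0.0232) and after centring (-0.33, limma adjusted p = 0.0421). Acsm2 differed by -0.50 ± 0.16 on all arrays (limma adjusted p = 0.0860) and by -0.20 ± 0.06 on the male arrays. The 1 gene of the list called on the male arrays was Dpep1, which was higher with CsA (0.35 ± 0.08, limma adjusted p = 0.0424). On all arrays Dpep1 differed by 0.31 ± 0.10 (limma adjusted p = 0.0944).

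**Figure D4:**
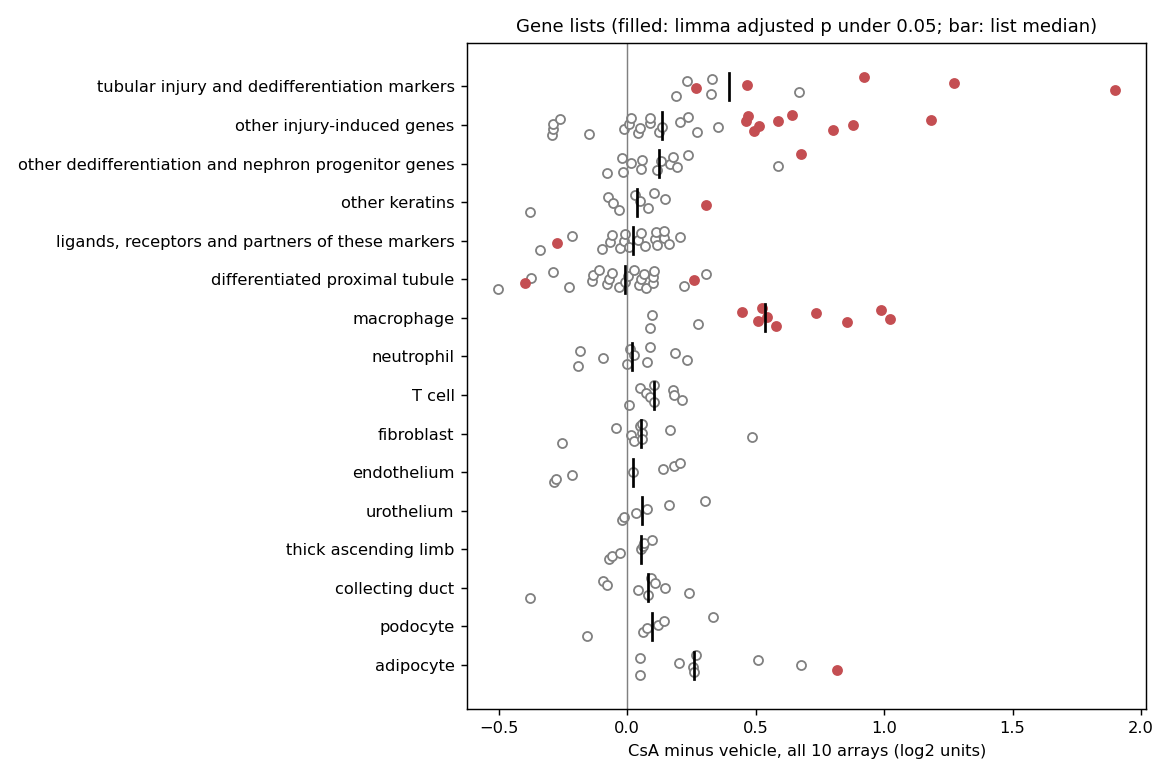
Differences between CsA and vehicle (x axis, log2 units, all 10 arrays) of each gene of the lists named on the y axis; filled points have a limma adjusted p under 0.05 and bars are list medians. The tubular injury markers (median 0.40) and the macrophage genes (median 0.54) lie to the right, and the differentiated proximal tubule genes lie around 0.

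Macrophage markers moved with the injury markers. Of 12 genes 9 rose on all arrays and 8 on the male arrays, against 2.95% and 1.53% of all genes. On all arrays C1qb was 1.98-fold, Adgre1 1.81-fold, C1qc 1.66-fold and Cd68 1.49-fold higher. Csf1r, Mrc1 and Cd14 were 0.09 ± 0.07, 0.10 ± 0.10 and 0.28 ± 0.12 log2 units (SE) higher with CsA on all arrays and were not called. The summed signal of the 12, as log2 of the sum, was 10.52 to 10.88 with CsA, 10.56 to 10.70 on the male CsA arrays and 9.93 to 10.15 with vehicle. CsA replicate 2 was the highest CsA array for macrophage signal. It was also the highest for Cd44 and lay close to the highest for Spp1 (11.02 against 11.03), and it was the lowest for Havcr1 and Lcn2. CsA replicate 1 was the lowest CsA array for macrophage signal (10.52). Yet its Cd44 (4.97) lay above CsA replicates 3 to 5 and its Spp1 (10.90) above CsA replicates 4 and 5. CsA replicates 1 and 2 both carried female RNA. Macrophages can express Spp1, Cd44 and Lgals3, and the part of these cells in the marker values was not tested. Neutrophils also make Lcn2. None of 10 neutrophil genes was called by limma, where 2.95% of all genes rose and 3.54% fell. Of these neutrophil genes 1 had an unadjusted p under 0.05, a level at which 10% of all genes were higher. Their summed signal was 7.85 to 7.92 with CsA and 7.82 to 7.92 with vehicle. Several were dim, such as S100a8 (mean 3.13 with CsA, 2.90 with vehicle) and Retnlg (3.09 and 3.19), against array medians of 5.14 to 5.21. Elane, Cxcr2 and Csf3r lay near these medians. Dim genes can hide a change, and the part of neutrophils in the Lcn2 values was not tested.

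Limma called none of 9 T cell, 10 fibroblast, 7 endothelial, 7 thick ascending limb, 9 collecting duct and 6 podocyte genes over the 10 arrays. Those with an unadjusted p under 0.05 in either direction numbered 0, 2, 3, 0, 1 and 1 in that order. At that level 10% of all genes were higher, and the share lower was not counted. Over all genes 2.95% rose and 3.54% fell, and at these shares a list this short often holds no call. Among 9 adipocyte genes Retn, encoding resistin, rose 1.76-fold (limma adjusted p = 0.0139), and on the male arrays Cfd, encoding adipsin, rose as well (0.68 ± 0.14 (SE), limma adjusted p = 0.0312). The adipocyte median was 0.26 on all arrays and 0.65 on the male arrays.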

How the data were processed

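Total RNA (200 ng per kidney sample) was amplified, labelled with biotin and hybridised to Mouse Gene ST 2.0 arrays, per the labels' protocols. The deposited values are log2 expression values per feature, and the authors' tools were RMA and Partek 6.4, per the submitters' processing notes. The tools' settings and a genome build are not given in the sources used here. Both deposited tables held the same log2 values for 41345 features (largest difference 0). Gene names were brought up to date with RefSeq (GRCm38.p6), naming 21749 features by accession, 2411 by gene identifier and 219 by synonym, with 8092 kept and 8874 unnamed. Each gene was represented by its brightest row, without a filter on dim genes.

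CsA and vehicle were compared with limma 3.58.1 in R 4.3.3 (lmFit, eBayes, 2-sided), with Benjamini-Hochberg adjustment over 30894 genes and a threshold of 0.05. Exact permutation tests used scipy 1.17.1. The limma step was also run on simulated data with independent noise for each gene. That simulation held no sex difference and no shift shared by the genes of an array, so it could not test the effect of either. The markers, lists, rules and alternatives were chosen with earlier results of these data known. Genes named were the 10 markers, up to 4 per list with the smallest p, 6 partners, and the 5 genes most like Havcr1 and Lcn2, leaving out model names and small RNAs. Other genes were named after their values were seen. All 10 markers lay above the 25th percentile of mean signal and 8 above the median, Krt20 and Cd44 excepted. The number of arrays limits the precision.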

Additional observations from a re-analysis of the deposited data

Results flagged for a closer look

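Within groups of 5, an array was picked out when its gap to the nearest array exceeded 0.71 of the group's range (Dixon's test). Chance flags about 1 in 20 groups, and 7 of 98 groups were picked out here, 1 of them among the 20 groups of the 10 markers. That marker was Cd24a in CsA replicate 3, at 9.997 against 10.15 to 10.21 on the other CsA arrays. The others were Itgav in CsA replicate 3 (9.96), C1qb in CsA replicate 2 (8.99), Cfd in CsA replicate 2 (5.77), Krt7 in vehicle replicate 2 (6.76), Slc5a1 in vehicle replicate 5 (7.88) and Adipoq in vehicle replicate 1 (4.38). Havcr1 in CsA replicate 3 (8.31) did not reach the limit.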

How the results depend on the processing

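Lcn2, Spp1 and Clu stayed called in the comparison of all 10 arrays under every alternative run. With trend and robust moderation Havcr1 missed the threshold on all arrays (limma adjusted p = 0.0732) and Sox9 and Krt18 passed it (0.0429 and 0.0388). The markers called higher numbered 3 to 5 on leaving out 1 of the 10 arrays and 2 to 4 on leaving out 1 of the 8 male arrays. The other injury-induced genes called higher numbered 4 to 9 with 1 array left out, 2 with a term for the 2 female arrays and 3 without those arrays. The proximal tubule genes called lower, 1 in the comparison as reported, numbered 0 to 2 with 1 array left out. They numbered 0 with the female term or without the female arrays. They numbered 2 after centring, above the 25th percentile, with trend and robust moderation and with array weights, and 3 above the median. On the male arrays 6 of the 25 had an unadjusted p under 0.05 in either direction. At that level 8.92% of all genes were higher there, and the share lower was not counted. All genes called numbered 2004 on all arrays, 1134 to 1927 with 1 array left out, 3284 above the median of signal, 1011 with the female term and 980 on the male arrays. On the male arrays they numbered 161 to 1042 with 1 array left out, 1585 above the 25th percentile, 2475 above the median and 2215 with trend and robust moderation. A filter tests fewer genes and leaving out arrays lowers the sample number. The cause of the other changes was not tested. Centring moved every difference by -0.04 log2 units, and on the male arrays 32.9% of calls were then higher in place of 48.3%. No marker changed sign under any alternative. No paired analysis was possible because the labels give no replicate numbers shared between the groups.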
